A study of Mus musculus with 12 samples.

Results

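The genes described here are 34 genes of the enterocyte brush border and of intestinal absorption, measured by RNA-seq in sorted mouse intestinal stem cells (ISCs). They were taken by symbol from a list drawn up with earlier results of these data known, and all 34 were found among the 47729 genes of the deposited count table. Their roles are disaccharidases (*Sis*, *Lct*, *Treh*), peptidases and other surface enzymes (*Alpi*, *Anpep*, *Dpp4*, *Enpep*, *Mep1a*, *Mep1b*, *Ggt1*), the microvillus core and an endocytic receptor (*Vil1*, *Cubn*), fatty acid and retinol binding (*Fabp1*, *Fabp2*, *Rbp2*), lipoprotein assembly (*Apoa1*, *Apoa4*, *Apob*, *Apoc3*, *Mttp*), triglyceride synthesis (*Dgat1*, *Dgat2*, *Mogat2*), sterol transport (*Npc1l1*, *Abcg5*, *Abcg8*), sugar transport (*Slc5a1*, *Slc2a2*, *Slc2a5*), amino acid and peptide transport (*Slc6a19*, *Slc15a1*), and a cytochrome and transcription factors (*Cyp3a11*, *Creb3l3*, *Maf*).

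Enterocytes are the absorptive cells of the gut lining. They arise from Lgr5-expressing stem cells at the crypt base, whose daughters divide, leave the crypt and mature as they move up the villus, where the brush border carries the enzymes that finish the digestion of sugars and peptides and the carriers that take up the products. Fatty acids and monoglycerides are bound in the cytoplasm, rebuilt into triglyceride and exported as chylomicrons, and many of these genes are known targets of the transcription factors HNF4, HNF1, CDX2 and GATA4.

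The study asked how psychological stress and the stress hormone corticosterone change the ISC transcriptome. Lgr5-EGFP-IRES-CreERT2 mice of 8 to 10 weeks were used for all 4 groups. In this knock-in, EGFP follows the *Lgr5* promoter and is present in a mosaic of crypts. The stress group had a single exposure to restraint. Its libraries are nevertheless titled CRS, the study's name for chronic restraint stress, and the labels say only that the stress was restraint. The methods give sessions of 3 h, and controls kept without food and water for that time, in the chronic protocol. The CORT group had 1 injection of 5 mg/kg corticosterone into the peritoneum, and the vehicle group had the solvent, 20% sulfobutylether-β-cyclodextrin. Both sexes were used in the study and the sex behind each library is not given. Villi were scraped off before crypts were isolated, and viable EGFP-high cells that carried EpCAM and lacked CD31, CD45, TER119 and CD24 were sorted.

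Each group had 3 libraries, named Ctrl-1, Ctrl-2 and Ctrl-3, CRS-1+2, CRS-3 and CRS-4+5+6 for stress, Vehicle-3, Vehicle-5 and Vehicle-6, and CORT-2, CORT-4 and CORT-5. The joined numbers read as pools of mice, which the labels do not state, and the p-values below measure the spread between these libraries. Total counts were 16152289 to 16943362 in Ctrl, 15934907 to 17135770 in stress, 16465961 to 31280267 in vehicle and 29426183 to 69533214 in CORT libraries. Levels are given as CPM, counts scaled by library size. The summed level of 6 ISC markers (*Lgr5*, *Olfm4*, *Ascl2*, *Smoc2*, *Slc12a2*, *Axin2*) was 10700 to 13900 CPM over the 12 libraries, against at most 6.61 CPM for 6 blood markers and at most 3.23 CPM for 6 stromal and endothelial markers.

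The promoters of 28 of the 34 members were in the RefSeq table used (GRCm38.p6), as windows from 250 bases before to 50 bases after the gene start. The following 5 are shown as a selection from the members called in stress vs Ctrl below. Other called members, among them *Fabp1* and *Apoa1*, are not shown, so the 5 do not stand for the motif shares of all members. Capitals mark matches to the motifs named after them, and each sequence reads along the gene's strand.
*Sis*, sucrase-isomaltase, minus strand of chr3:72967814-72968113: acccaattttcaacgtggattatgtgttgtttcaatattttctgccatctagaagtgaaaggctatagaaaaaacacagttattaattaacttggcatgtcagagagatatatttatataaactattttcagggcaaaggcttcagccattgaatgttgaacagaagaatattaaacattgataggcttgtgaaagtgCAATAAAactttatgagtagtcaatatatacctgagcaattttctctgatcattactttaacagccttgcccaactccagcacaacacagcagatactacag
*Alpi*, intestinal alkaline phosphatase, minus strand of chr1:87101557-87101856: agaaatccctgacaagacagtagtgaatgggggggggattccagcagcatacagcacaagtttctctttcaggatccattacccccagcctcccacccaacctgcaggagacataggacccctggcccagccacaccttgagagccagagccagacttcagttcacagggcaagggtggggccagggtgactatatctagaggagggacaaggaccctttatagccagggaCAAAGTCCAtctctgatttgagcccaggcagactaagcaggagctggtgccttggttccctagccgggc
*Rbp2*, cellular retinol binding protein of the gut, plus strand of chr9:98490287-98490586: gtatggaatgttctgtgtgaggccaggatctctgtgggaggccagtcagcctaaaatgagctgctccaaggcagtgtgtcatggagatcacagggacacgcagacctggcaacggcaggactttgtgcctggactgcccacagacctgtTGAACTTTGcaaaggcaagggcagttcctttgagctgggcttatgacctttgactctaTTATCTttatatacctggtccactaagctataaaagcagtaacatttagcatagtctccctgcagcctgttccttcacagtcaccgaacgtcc
*Apoa4*, a chylomicron apolipoprotein, plus strand of chr9:46240594-46240893: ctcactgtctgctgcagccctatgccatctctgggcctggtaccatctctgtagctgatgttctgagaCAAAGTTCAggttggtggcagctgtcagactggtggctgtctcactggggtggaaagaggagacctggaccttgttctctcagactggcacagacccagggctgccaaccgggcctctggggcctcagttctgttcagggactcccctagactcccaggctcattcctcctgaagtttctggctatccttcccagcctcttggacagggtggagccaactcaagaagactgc
*Slc5a1*, the sodium-glucose cotransporter SGLT1, plus strand of chr5:33103969-33104268: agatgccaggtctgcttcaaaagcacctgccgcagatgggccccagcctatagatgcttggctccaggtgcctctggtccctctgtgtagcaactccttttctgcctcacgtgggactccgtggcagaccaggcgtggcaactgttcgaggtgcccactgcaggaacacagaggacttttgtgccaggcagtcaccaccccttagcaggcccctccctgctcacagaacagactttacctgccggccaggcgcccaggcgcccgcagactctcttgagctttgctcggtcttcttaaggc
The capitals in *Alpi*, *Rbp2* and *Apoa4* at bases -19, -101 and -182 from the start are the HNF4 motif CAAAGTNCA, those in *Sis* at -52 are a CDX motif (TTTATGG or TTTATTG), and the second match of *Rbp2*, at -43, is the GATA motif AGATAA. The *Slc5a1* window held no match to any motif searched, and the RefSeq start of *Rbp2* (base 98490537) lies inside the longer gene model of the deposited files, which begins at base 98486115. The RefSeq start of *Apoa4* (base 46240844) also lies inside its deposited gene model, which begins at base 46240696. Positions of matches are counted from the RefSeq start.

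All motifs were read on both strands, their matches could overlap, and a gene counted once if any of its windows held a match. The HNF4 motif was found for 6 of the 28 members (*Treh*, *Alpi*, *Fabp2*, *Rbp2*, *Apoa4*, *Cyp3a11*; 21.4%) and for 1.64% of 27025 genes. The GATA motif was found for 7 of the 28 members (25%, against 12.7% of all genes). The CDX motif was found for 4 (14.3%, against 8.32%), and the HNF1 motif TTAATNATT for 2 (7.14%, against 1.72%). The glucocorticoid receptor motif ACANNNTGT was found for 4 (*Fabp2*, *Abcg5*, *Abcg8*, *Cyp3a11*; 14.3%, against 7.90%). *Abcg5* and *Abcg8* overlap on opposite strands, so their windows share sequence. A match to these letters is a description and not a bound site.

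In Ctrl ISCs the members spanned a wide range of levels on the FPKM scale, which allows for gene length. *Vil1*, which bundles the actin core of the microvillus, was highest with 150 ± 6.54 FPKM (SD, n = 3) and stood at the 97.8th percentile of detected genes. *Fabp2*, the intestinal fatty acid binding protein, had 97.9 ± 16.0 FPKM, and *Dgat1*, which makes triglyceride, had 70.4 ± 4.21 FPKM. *Anpep*, or aminopeptidase N, had 63.7 ± 1.5 FPKM and *Slc5a1* 43.8 ± 2.44 FPKM. The classic markers of mature enterocytes were much lower: *Sis* had 5.01 ± 1.64 FPKM, *Alpi* 2.43 ± 1.03 FPKM and *Lct*, lactase, 1.01 ± 0.0929 FPKM. The lowest member was *Cubn*, the endocytic receptor cubilin, with 0.145 ± 0.0165 FPKM. The 5 highest members stood at or above the 90.9th percentile of detected genes, and the 10 lowest, from *Treh* down, at or below the 45.2nd.

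Restraint stress was compared with Ctrl first. All 34 members had a higher fitted level in stress than in Ctrl ISCs, with a median log2 fold change of 1.99 and a range from 0.21 (*Abcg5*) to 3.60 (*Alpi*). Of 13722 genes tested, 1.30% were called higher at an adjusted p below 0.05 and 0.590% lower. Of the members, 12 were called higher and none lower (edgeR's quasi-likelihood test with Benjamini-Hochberg adjustment over all genes tested). With the study's added limit of 2-fold, 11 members were called higher, against 0.612% of all genes. At an unadjusted p below 0.05, 30 members were higher and 0 lower, against 8.39% of all genes higher. All 3 stress libraries lay above all 3 Ctrl libraries for 17 members, and below them for 0, against 10.2% of genes in each direction.

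The difference was unequal among the stress libraries, and all 34 members had the order CRS-4+5+6, then CRS-1+2, then CRS-3. Over the 14415 genes tested across all libraries, 20.3% had that order, and the members, which move together, are not independent of each other. The median member stood at 6.92 times the Ctrl mean in CRS-4+5+6, at 3.31 times in CRS-1+2 and at 1.17 times in CRS-3. In CRS-4+5+6 all 34 members were above the highest Ctrl library, in CRS-1+2 33 were, and in CRS-3 17 were while 5 were below the lowest. The summed level of the members was 1900 CPM in each Ctrl library and 3680, 2170 and 5750 CPM in CRS-1+2, CRS-3 and CRS-4+5+6. The 2 libraries with joined names were thus the high ones and the library with a single number was near Ctrl.

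**Figure D1:**
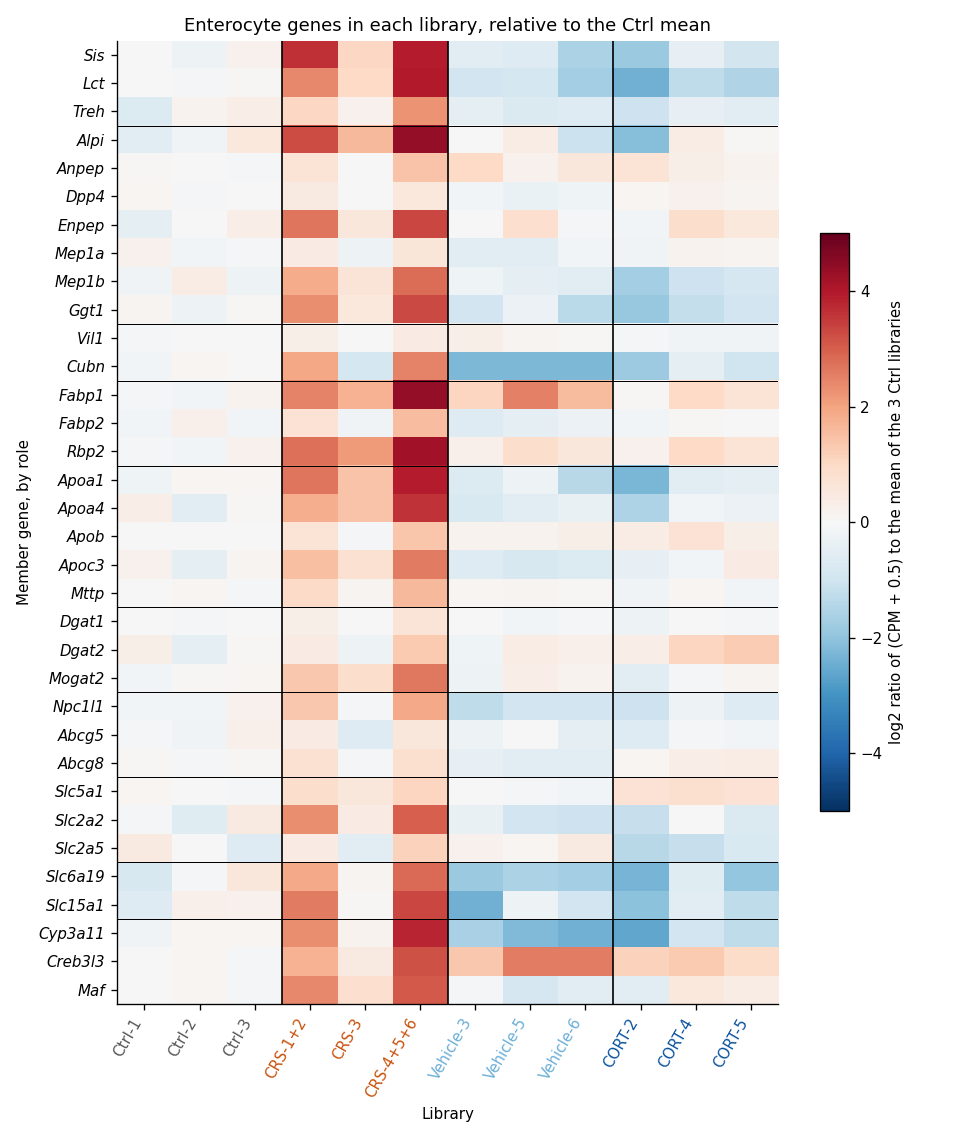
Heat map of the 34 members (rows, by role, separated by lines) in the 12 libraries (columns, by group). Colour is the log2 ratio of CPM + 0.5 to the mean of the 3 Ctrl libraries. CRS-4+5+6 and CRS-1+2 are red for nearly every member (medians 2.63 and 1.61), CRS-3 is pale (median 0.21), and *Slc5a1* is raised in all 3 stress and all 3 CORT libraries.

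The calls depended on single libraries. Without CRS-3, 30 of the 34 members were called and the median log2 fold change was 2.41. Without CRS-4+5+6, 8 were called and the median was 1.31, and without CRS-1+2, 4 were called (*Fabp1*, *Rbp2*, *Apoa1*, *Slc5a1*) with a median of 2.12. Leaving out any 1 of the 3 Ctrl libraries left 0 members called by edgeR, with 25, 26 and 25 at an unadjusted p below 0.05 without Ctrl-1, Ctrl-2 and Ctrl-3, while the median stayed at 1.85 to 1.99. With all libraries, DESeq2 called 19 members, all higher.

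Among the disaccharidases, *Sis* had 22.2, 19.1 and 26.6 CPM in Ctrl-1 to Ctrl-3 and 292, 47.2 and 353 CPM in CRS-1+2, CRS-3 and CRS-4+5+6. The groups did not overlap, and even the lowest stress library held more than any Ctrl library. The log2 fold change was 3.35 ± 0.58 (SE; adjusted p = 0.0198, edgeR). *Lct* went from 7.02, 6.34 and 7.26 CPM to 38.9, 14.3 and 116 CPM (log2 fold change 3.03 ± 0.61, adjusted p = 0.0358), again without overlap. *Treh*, trehalase, had 3.04 to 6.65 CPM in Ctrl and 6.19 to 26.6 CPM in stress libraries, which overlapped (adjusted p = 0.173), and it shares part of its locus with *Phldb1* on the opposite strand, whose reads this kit cannot separate.

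Of the 7 surface enzymes, *Alpi*, *Enpep* and *Mep1b* were called. *Alpi*, which detoxifies bacterial lipopolysaccharide at the brush border, had 4.21, 5.56 and 9.21 CPM in Ctrl and 64.1, 20.3 and 145 CPM in stress libraries, a log2 fold change of 3.60 ± 0.61 (adjusted p = 0.019). *Enpep*, aminopeptidase A, had 9.53, 13.3 and 16.6 CPM against 87.1, 19.5 and 139 CPM (log2 fold change 2.64 ± 0.55, adjusted p = 0.0444). *Mep1b*, the meprin beta subunit, had 10.3, 15.2 and 9.88 CPM against 44.0, 18.6 and 85.4 CPM (log2 fold change 2.07 ± 0.44, adjusted p = 0.0486). In each of these the CRS-3 value stood closest to Ctrl. *Ggt1*, gamma-glutamyltransferase, did not overlap either (2.27 to 3.16 against 4.19 to 32.2 CPM) and had an adjusted p of 0.0546. *Anpep* (230 to 250 against 235 to 645 CPM), *Dpp4* (120 to 136 against 125 to 183 CPM) and *Mep1a* (27.0 to 34.7 against 25.2 to 45.4 CPM) overlapped, with log2 fold changes of 0.81, 0.35 and 0.30 and adjusted p of 0.188, 0.255 and 0.553.

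The structural member *Vil1* had 495, 526 and 525 CPM in Ctrl and 638, 516 and 676 CPM in stress libraries, a log2 fold change of 0.25 ± 0.11 (adjusted p = 0.301). *Cubn* had 1.64 to 2.03 CPM in Ctrl and 8.58, 0.789 and 12.5 CPM in stress libraries (adjusted p = 0.227). Its CRS-3 level was below every Ctrl library while the other stress libraries were above, so the groups overlapped.

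The binding proteins for fatty acids and retinol included the member with the lowest adjusted p. *Rbp2* had 8.83, 8.25 and 10.7 CPM in Ctrl and 65.7, 41.7 and 179 CPM in stress libraries, a log2 fold change of 3.37 ± 0.47 (adjusted p = 0.00825). *Fabp1*, the liver-type fatty acid binding protein, had 9.06, 8.61 and 10.9 CPM against 54.8, 32.8 and 212 CPM (log2 fold change 3.39 ± 0.60, adjusted p = 0.0221). Both stood well above Ctrl in CRS-3 as well. *Fabp2* had 95.0, 126 and 94.3 CPM in Ctrl and 175, 93.5 and 309 CPM in stress libraries (log2 fold change 0.87, adjusted p = 0.243), and its CRS-3 level was below every Ctrl library.

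In lipoprotein assembly, *Apoa1* had 22.1, 28.1 and 28.1 CPM in Ctrl and 168, 71.8 and 406 CPM in stress libraries (log2 fold change 3.05 ± 0.50, adjusted p = 0.0176). *Apoa4* had 26.5, 14.4 and 21.6 CPM against 75.4, 56.8 and 261 CPM (log2 fold change 2.66 ± 0.51, adjusted p = 0.0315). *Apoc3*, which lies between them on chromosome 9, had 1.85 to 3.22 CPM against 4.97 to 19.1 CPM (log2 fold change 2.01, adjusted p = 0.0659). The 3 apolipoprotein genes of this cluster, all within chr9:46228580-46243459 (mm10), thus did not overlap between the groups. *Mttp*, which loads lipid onto apolipoprotein B, had 108 to 125 CPM against 129 to 360 CPM (adjusted p = 0.109), and *Apob* itself had 111 to 115 CPM against 106 to 297 CPM (adjusted p = 0.208).

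*Mogat2*, which re-esterifies monoglyceride, was the called gene of triglyceride synthesis. It had 7.31, 8.43 and 8.66 CPM in Ctrl and 21.3, 15.4 and 53.5 CPM in stress libraries (log2 fold change 1.89 ± 0.40, adjusted p = 0.0444). Its neighbour *Dgat2* had 11.7 to 20.3 against 13.8 to 41.3 CPM (adjusted p = 0.425), and *Dgat1* had 128 to 137 against 131 to 210 CPM (adjusted p = 0.31). None of the sterol transporters was called: log2 fold changes were 1.29 for *Npc1l1*, the cholesterol importer, 0.21 for *Abcg5* and 0.56 for *Abcg8*, which together export sterols, with adjusted p of 0.131, 0.778 and 0.189. Their Ctrl and stress libraries overlapped, at 22.8 to 29.4 against 24.0 to 94.3 CPM for *Npc1l1*, 40.4 to 54.5 against 29.4 to 68.3 CPM for *Abcg5* and 52.0 to 57.5 against 53.9 to 97.3 CPM for *Abcg8*.

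*Slc5a1* was the called member with the smallest fold change and the tightest spread. It had 214, 195 and 191 CPM in Ctrl and 366, 295 and 424 CPM in stress libraries, a log2 fold change of 0.86 ± 0.13 (adjusted p = 0.0101). All its stress libraries, CRS-3 included, were clear of Ctrl. *Slc2a2*, the basolateral exporter GLUT2, had 1.79 to 4.39 against 4.19 to 27.9 CPM (log2 fold change 2.44, adjusted p = 0.0715), and *Slc2a5*, the fructose carrier GLUT5, 4.21 to 9.53 against 4.55 to 15.8 CPM (adjusted p = 0.643). Both overlapped between groups. The amino acid carrier *Slc6a19* and the peptide carrier *Slc15a1* were also high in CRS-1+2 and CRS-4+5+6 and within the Ctrl range in CRS-3, with log2 fold changes of 2.12 and 2.78 and adjusted p of 0.121 and 0.0896. They ran from 2.05 to 6.04 and from 1.17 to 2.69 CPM in Ctrl, and reached 30.6 and 26.4 CPM in CRS-4+5+6.

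*Maf*, a transcription factor of the enterocyte program, had 4.39, 4.78 and 4.02 CPM in Ctrl and 25.1, 8.19 and 40.7 CPM in stress libraries (log2 fold change 2.49 ± 0.47, adjusted p = 0.0282). *Creb3l3*, a membrane-bound factor that drives apolipoprotein genes, had 7.07 to 8.19 against 10.7 to 73.1 CPM and did not overlap (adjusted p = 0.0715). *Cyp3a11*, a drug-metabolizing cytochrome, had 2.46 to 3.05 against 3.34 to 46.1 CPM (adjusted p = 0.0774), and near-identical *Cyp3a* genes make its counts uncertain.

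**Figure D2:**
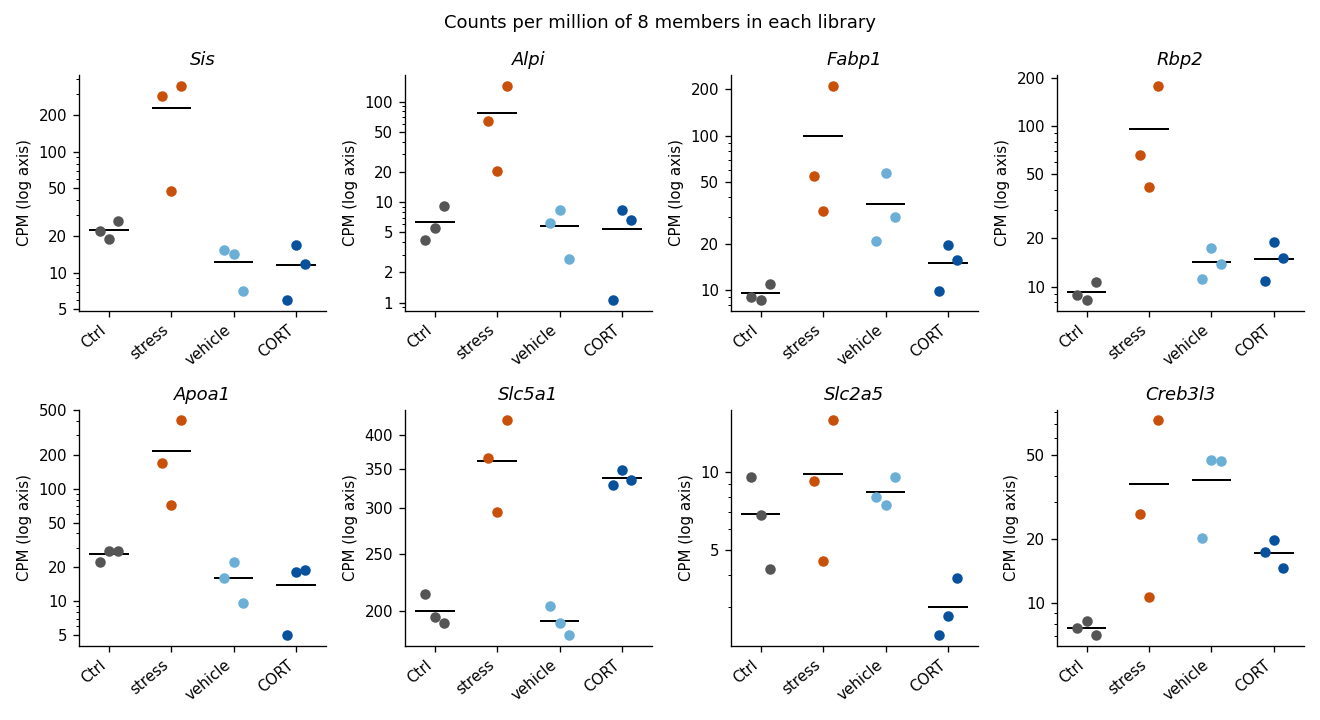
CPM of 8 members in each library (points, log axis) with the mean of each group (bars, n = 3). The stress points are widely spread for *Sis*, *Alpi*, *Fabp1*, *Rbp2* and *Apoa1*, whereas *Slc5a1* is raised evenly in stress and CORT, *Slc2a5* is lower in CORT than in vehicle, and *Creb3l3* is higher in vehicle than in Ctrl.

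The fold change was larger for members that Ctrl ISCs held at low levels. Of the 17 members at 5.04 to 150 FPKM in Ctrl, the median log2 fold change was 0.81 and 5 were called. Of the 17 at 0.145 to 5.01 FPKM it was 2.44 and 7 were called. Over the 34 members Pearson's r between log level and fold change was -0.52 and Spearman's rho -0.46, a description only, since both measures use the same Ctrl libraries. *Apoa1*, *Fabp1* and *Rbp2* went against this order, with levels above 10 FPKM in Ctrl and log2 fold changes over 3.

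**Figure D3:**
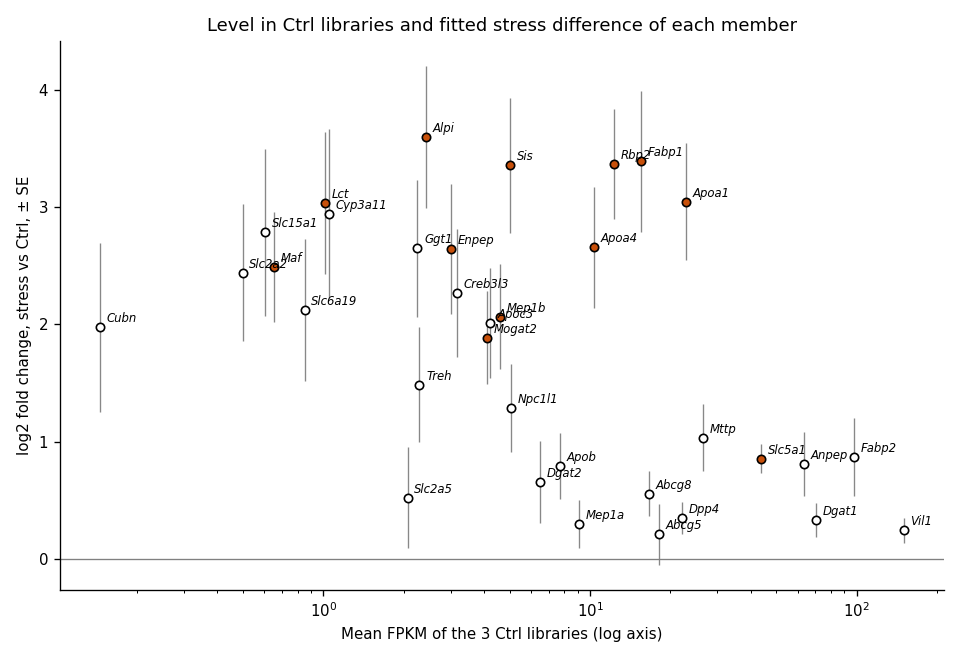
Mean FPKM of each member in the 3 Ctrl libraries (log axis) against its log2 fold change in stress vs Ctrl (bars, SE; filled, adjusted p below 0.05). Members below about 5 FPKM have a median of 2.44, those above have a median of 0.81, and *Apoa1*, *Fabp1* and *Rbp2* stand out at the upper right.

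Other genes of the absorptive cell were then counted by list. Of 8 other digestive enzymes tested, all had higher fitted levels in stress and 2 were called: *Ace* (log2 fold change 1.80), which cleaves angiotensin I, and *Enpp7* (2.21), which digests sphingomyelin. Of 18 other transporters, 17 were higher and 2 were called, *Slc7a7* (0.83) and *Slc6a20a* (2.95), both amino acid carriers. Of 14 other brush border structure genes and 11 other lipid absorption genes, none was called by edgeR, with medians of 0.28 and 0.49; 9 and 3 were higher at an unadjusted p below 0.05, and DESeq2 called 2 and 3. Over all genes tested the median was -0.0028.

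Of 12 transcription factors of the enterocyte, *Nr1h4*, the bile acid receptor, was called higher (log2 fold change 0.84 ± 0.13, adjusted p = 0.0148). *Hnf4a* had 1340, 1360 and 1340 CPM in Ctrl and 1090, 1050 and 985 CPM in stress libraries, and was called lower (-0.37 ± 0.08, adjusted p = 0.044). *Cdx2* had 395, 452 and 367 CPM against 208, 265 and 242 CPM and was also called lower (-0.76 ± 0.11, adjusted p = 0.0101). With 1 library left out the calls for *Nr1h4*, *Hnf4a* and *Cdx2* held in 1, 1 and 4 of 6 fits. *Hnf4a* and *Cdx2* fell in all 3 stress libraries alike, CRS-3 included, and so did not follow the order of the members. *Nr1h4* did have that order, with 30.9, 27.7 and 32.4 CPM in CRS-1+2, CRS-3 and CRS-4+5+6. So did *Hnf4g*, which was not called, with 79.4, 42.6 and 95.7 CPM (0.75, adjusted p = 0.161, edgeR). Also without an edgeR call, *Nr1i2* (0.47, adjusted p = 0.0564) and *Vdr* (0.27, adjusted p = 0.107) were above Ctrl in every stress library. *Gata4* (-0.30, adjusted p = 0.116) and *Cdx1* (-0.16, adjusted p = 0.4) were below Ctrl in every stress library. DESeq2 called 4 of the 12 factors higher and 3 lower.

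Markers of other cell types moved with the members in some libraries. The summed level of 6 goblet markers was 521 to 666 CPM in Ctrl and 885, 501 and 1350 CPM in CRS-1+2, CRS-3 and CRS-4+5+6. Of the 6, 1 was called higher (*Clca1*, log2 fold change 1.59). *Muc2* (0.95) and *Fcgbp* (0.91) were fitted higher without a call, and *Tff3* (0.07), *Spink4* (-0.003) and *Agr2* (0.12) hardly differed. The sum over 6 Paneth markers was 136 to 173 CPM in Ctrl and 263, 169 and 248 CPM in the same stress libraries, with *Mmp7* called higher (0.87). The 6 villus tip genes summed to 91.5 to 102 CPM in Ctrl and to 140, 97.7 and 205 CPM in the stress libraries. None of the 5 tested was called by edgeR or DESeq2, and 1, *Krt20*, was higher at an unadjusted p below 0.05. Most of the rise was *Krt20*, with 7.84, 15.4 and 16.2 CPM in Ctrl and 53.3, 18.3 and 119 CPM in CRS-1+2, CRS-3 and CRS-4+5+6. Fitted log2 fold changes were 0.07, -0.03 and 0.04 for *Ada*, *Egfr* and *Slc28a2*, and 0.87 for *Pmp22*, a gene at a few CPM. ISC markers summed to 10700 to 12100 CPM in Ctrl and to 13600, 13900 and 11300 CPM in the stress libraries. Most of this sum was *Olfm4*, fitted higher without a call (0.23). Of the 6 ISC markers 4 were fitted lower, with *Ascl2* called (-1.23). *Axin2* was below Ctrl in every stress library without a call (-0.27, adjusted p = 0.121, edgeR). Enteroendocrine markers summed to 30.9 to 63.9 CPM against 26.1 to 52.9 CPM and tuft markers to 12.2 to 14.8 CPM against 8.46 to 13.9 CPM. The 6 cycling markers summed to 1230 to 1300 CPM against 1430 to 1440 CPM. Of these, *Mki67* (0.43, adjusted p = 0.0282), *Top2a* (0.45, adjusted p = 0.0218) and *Ccnb1* (0.55, adjusted p = 0.0227) were called higher by edgeR, while *Mcm5* (-0.24) and *Pcna* (-0.34) had lower fitted levels and no call. With 1 library left out the calls for *Mki67*, *Top2a* and *Ccnb1* held in 1, 1 and 3 of 6 fits. The part that goblet and Paneth cells, or enterocytes and their precursors in the gate, had in the members' levels was not tested. In bulk RNA a change in the number of cells of a type and a change in the RNA per cell cannot be told apart.

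**Figure D4:**
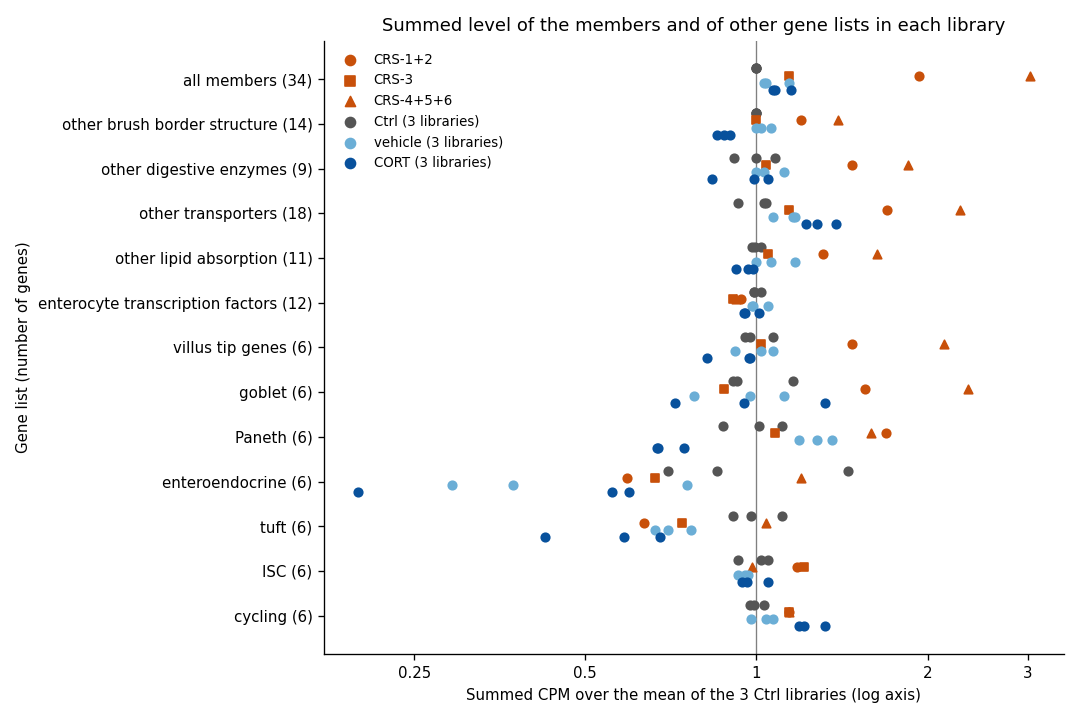
Summed CPM of the 34 members and of 12 other gene lists in each library, divided by the mean of the 3 Ctrl libraries (log axis). The members stand at 3.03 in CRS-4+5+6, 1.93 in CRS-1+2 and 1.14 in CRS-3, and the goblet list at 2.36, 1.55 and 0.876. The sum over transcription factors of the enterocyte stays between 0.911 and 1.05 in all 12 libraries. Single genes within that sum moved in both directions (7 fitted higher and 5 lower in stress vs Ctrl).

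CORT was compared with vehicle to ask whether the injected hormone moved the same genes. Of the 34 members, 33 could be tested, since *Cubn* had no count in any vehicle library, and 16 were fitted higher and 17 lower, with a median log2 fold change of -0.02. In this comparison 3.64% of 14656 genes were called higher and 4.50% lower. Of the members, 4 were called higher (*Slc5a1*, *Abcg8*, *Fabp2*, *Dpp4*) and 3 lower (*Slc2a5*, *Creb3l3*, *Vil1*). Past 2-fold as well, 2 members were called lower (*Slc2a5*, *Creb3l3*) and none higher, against 0.737% and 1.13% of all genes. At an unadjusted p below 0.05, 8 members were higher and 5 lower, against 11.2% and 12.1% of all genes. The 3 CORT libraries lay above all vehicle libraries for 6 members and below them for 5, against 14.0% and 14.7% of genes, so by this measure the members were not far from all genes. By calls at an adjusted p below 0.05 and by unadjusted p, the members' shares were above those of all genes in both directions. The summed level of the members was 1970 to 2160 CPM in vehicle and 2030 to 2190 CPM in CORT libraries.

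*Slc5a1* rose after CORT, to levels within the range of the stress libraries. It had 204, 191 and 182 CPM in vehicle and 328, 349 and 335 CPM in CORT libraries, a log2 fold change of 0.81 ± 0.08 (adjusted p = 0.000474, edgeR). *Abcg8* had 41.5, 37.2 and 38.0 CPM against 60.1, 70.3 and 71.1 CPM (log2 fold change 0.78 ± 0.09, adjusted p = 0.00148). *Abcg5*, its partner in the sterol exporter, had 32.9 to 45.7 against 29.0 to 44.0 CPM and a log2 fold change of -0.02. Reads where these genes overlap cannot be separated by strand, and the difference between their fold changes was not tested.

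*Fabp2* had 66.2, 74.2 and 85.6 CPM in vehicle and 96.4, 110 and 107 CPM in CORT libraries (log2 fold change 0.46 ± 0.10, adjusted p = 0.0251). *Dpp4*, dipeptidyl peptidase 4, which cleaves incretin hormones, had 115, 100 and 110 CPM against 136, 147 and 141 CPM (log2 fold change 0.38 ± 0.08, adjusted p = 0.0183). The vehicle levels of both were below those of Ctrl, which had 94.3 to 126 CPM of *Fabp2* and 120 to 136 CPM of *Dpp4*. The CORT levels of *Fabp2* thus lay within the Ctrl range.

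*Slc2a5* fell after CORT, from 8.02, 7.45 and 9.59 CPM in vehicle to 2.35, 2.79 and 3.89 CPM (log2 fold change -1.49 ± 0.25, adjusted p = 0.00696). The glucose and fructose carriers of the apical membrane thus moved in opposite directions. *Creb3l3* had 20.3, 47.4 and 47.0 CPM in vehicle and 17.5, 19.8 and 14.7 CPM in CORT libraries (log2 fold change -1.14 ± 0.28, adjusted p = 0.0381). *Vil1* had 626, 574 and 541 CPM against 485, 451 and 458 CPM (log2 fold change -0.32 ± 0.08, adjusted p = 0.0477). Among members without a call, *Fabp1* had 20.7 to 57.1 against 9.82 to 19.5 CPM (adjusted p = 0.0643) and *Mep1b* 8.07 to 9.99 against 3.26 to 6.37 CPM (adjusted p = 0.0949), both lower in every CORT library. *Apoc3* (1.34 to 1.55 against 1.87 to 3.79 CPM) and *Apob* (126 to 138 CPM against 139 CPM or more) were higher in every CORT library, with adjusted p of 0.183 and 0.187.

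The calls for *Slc5a1*, *Abcg8* and *Slc2a5* held without any 1 of the 6 libraries, while *Vil1* lost its call without each of them in turn (adjusted p = 0.0506 to 0.179). *Creb3l3*, *Fabp2* and *Dpp4* kept their calls in 1, 2 and 3 of these 6 fits (adjusted p up to 0.129, 0.103 and 0.0834). Without CORT-4, without CORT-5 or without Vehicle-5, 3 members were called. The median log2 fold change was 0.29 without CORT-2 and -0.21 without CORT-4, so its sign is not settled.

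Of the other lists, 5 of 13 brush border structure genes were called lower after CORT: *Myo1a* (log2 fold change -0.33), *Anks4b* (-0.90), *Ezr* (-0.35), *Slc9a3r1* (-0.53) and *Eps8* (-0.64), which build or link microvilli, as *Vil1* does. The transporter *Slc7a8* was called higher (0.83), as was *Mme*, neprilysin (0.79), and *Ace* (-0.82), *Slc39a4* (-0.44) and *Agpat2* (-0.64) were called lower. Among transcription factors, *Hnf4a* (-0.40), *Cdx2* (-0.90) and *Gata4* (-0.57) were called lower, and the nuclear receptors *Nr1i2* (0.76) and *Vdr* (0.55) higher. Markers of the sorted ISCs moved as well, with *Lgr5* (-0.43, adjusted p = 0.0277), *Ascl2* (-0.998, adjusted p = 0.0114) and *Smoc2* (-0.31, adjusted p = 0.0474) called lower by edgeR. With 1 library left out, *Ascl2* was called in 5 of 6 fits and *Lgr5* and *Smoc2* in 0 of 6 (adjusted p up to 0.0723 and 0.161). The ISC list summed to 10700 to 11100 CPM in vehicle and 10900 to 12100 CPM in CORT libraries. Most of this sum was *Olfm4*, the 1 marker of the list fitted higher (0.15), and the other 5 were fitted lower. The 6 Paneth markers summed to 186 to 211 CPM in vehicle and 104 to 116 CPM in CORT libraries, and *Mmp7* (-1.32), *Defa17* (-0.66), *Defa24* (-0.67) and *Itln1* (-0.68) were called lower; reads of near-identical defensin genes are uncertain. Tuft markers summed to 8.84 to 10.2 against 5.68 to 9.06 CPM, with *Pou2f3* called lower (-1.14, adjusted p = 0.0317), and enteroendocrine markers to 12.9 to 33.3 against 8.80 to 26.4 CPM. Cycling markers summed to 1240 to 1350 against 1500 to 1670 CPM, with *Top2a* called higher (0.43). The endothelial marker *Pecam1* was called higher at 0.291 to 0.951 against 1.46 to 3.23 CPM, the vehicle values being near the counting floor. Its call held in 1 of 6 fits with a library left out. Goblet markers summed to 444 to 639 against 411 to 755 CPM. Villus tip genes summed to 87.8 to 103 against 78.3 to 93.3 CPM, with none called by edgeR or DESeq2 and none at an unadjusted p below 0.05. The part of these in the members' levels was not tested.

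**Figure D5:**
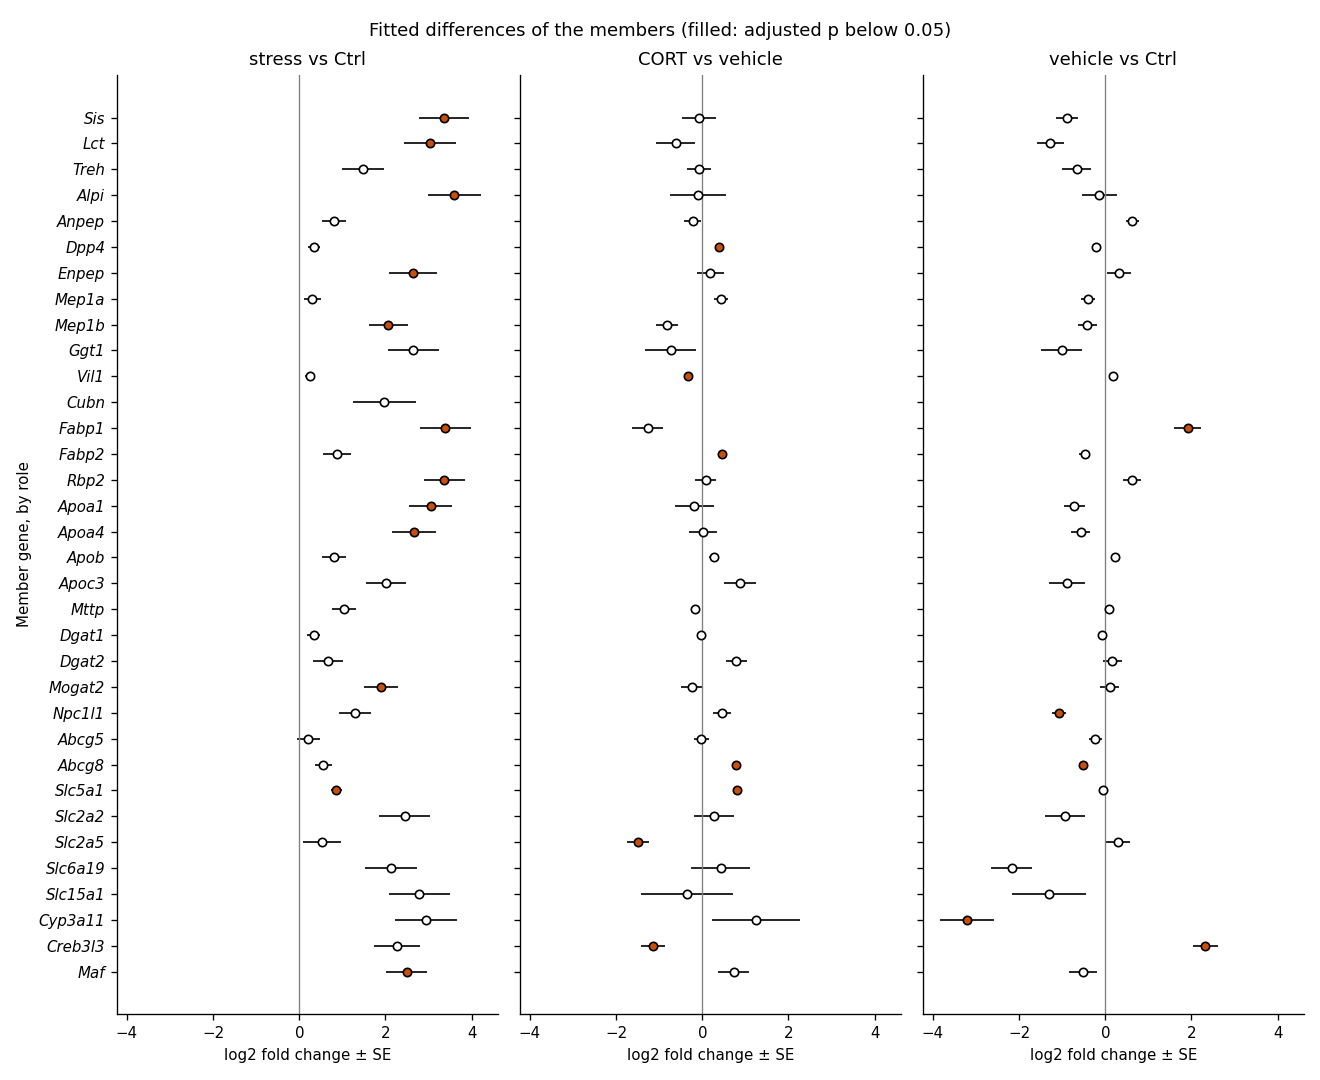
Log2 fold change (± SE) of each member in stress vs Ctrl, CORT vs vehicle and vehicle vs Ctrl (filled, adjusted p below 0.05). All 34 members lie to the right of 0 in the first panel, they lie on both sides in the others, and *Cubn* is left out where the vehicle libraries had no count.

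Vehicle was set beside Ctrl because each is the control of the other comparison, and the fits share those libraries. A total of 11 members were fitted higher in vehicle and 23 lower, with a median log2 fold change of -0.40. In this comparison 0.447% of 13642 genes were called higher and 0.352% lower. Of the members, 2 were called higher and 4 lower, and past 2-fold 2 and 3, against 0.227% and 0.132% of genes. At an unadjusted p below 0.05, 5 members were higher and 12 lower, against 6.16% and 4.93% of all genes. The libraries of the groups did not overlap for 6 members that were higher and 11 that were lower in vehicle, against 8.46% and 7.85% of genes. Those higher were *Anpep*, *Vil1*, *Fabp1*, *Rbp2*, *Apob* and *Creb3l3*, and those lower included *Sis*, *Lct*, *Ggt1*, *Apoc3* and *Slc6a19* beside the called genes.

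Markers of other cell types also differed between vehicle and Ctrl. The Paneth marker *Mmp7* had 25.7, 24.0 and 16.5 CPM in Ctrl and 79.2, 92.6 and 100 CPM in vehicle libraries (log2 fold change 2.04 ± 0.16, adjusted p = 0.000183, edgeR), while the other 5 Paneth markers were fitted lower. All 6 enteroendocrine markers were fitted lower, with none called by edgeR or DESeq2 and 1 lower at an unadjusted p below 0.05, and their sum was 30.9 to 63.9 CPM in Ctrl and 12.9 to 33.3 CPM in vehicle. Tuft markers summed to 12.2 to 14.8 against 8.84 to 10.2 CPM. Of the 4 villus tip genes tested, 2 were fitted higher and 2 lower. None was called by edgeR, while DESeq2 called 1 higher and 1 lower. *Krt20* was below Ctrl in every vehicle library (log2 fold change -1.05, adjusted p = 0.147). *Slc28a2* was above Ctrl in every vehicle library (0.61, adjusted p = 0.14). The part of these in the members' levels was not tested.

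*Creb3l3* was 7.66, 8.19 and 7.07 CPM in Ctrl and 20.3, 47.4 and 47.0 CPM in vehicle libraries, a log2 fold change of 2.33 ± 0.28 (adjusted p = 0.00467, edgeR). *Fabp1* was 9.06, 8.61 and 10.9 CPM against 20.7, 57.1 and 29.9 CPM (log2 fold change 1.92 ± 0.31, adjusted p = 0.0183). For both, vehicle stood above Ctrl in every library, and the CORT libraries lay between the Ctrl and vehicle means. *Npc1l1* was 22.9, 22.8 and 29.4 CPM in Ctrl and 10.2, 12.6 and 12.8 CPM in vehicle (log2 fold change -1.07 ± 0.17, adjusted p = 0.0153). *Abcg8* was 57.5, 52.0 and 57.2 CPM in Ctrl and 41.5, 37.2 and 38.0 CPM in vehicle (-0.51 ± 0.10, adjusted p = 0.044). *Cyp3a11* was 2.46, 3.05 and 3.05 CPM against 0.594, 0.233 and 0.13 CPM (-3.21 ± 0.62, adjusted p = 0.0428), the vehicle values being near the counting floor.

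*Cubn* had 1.64, 2.03 and 1.89 CPM in Ctrl and no count in any vehicle library (adjusted p = 0.0115). A count of 0 allows up to 12 counts per library, or 3 read pairs, which is 0.608 CPM on average, so *Cubn* was at least 3.05-fold lower in vehicle, counting error only. CORT-2, CORT-4 and CORT-5 held 0.164, 1.19 and 0.688 CPM, which is 11, 70 and 20 counts against the floor of 12. *Slc6a19* was among the lowest members in vehicle, with 0.713 to 0.989 CPM against 2.05 to 6.04 CPM in Ctrl (log2 fold change -2.17, adjusted p = 0.0742). Without Ctrl-1 0 members were called by edgeR in this comparison, with 5 higher and 10 lower at an unadjusted p below 0.05; without Ctrl-2 2 were called, without Ctrl-3 1, and without Vehicle-6 3. *Creb3l3* held its call in 5 of these 6 fits (adjusted p = 0.0514 without Ctrl-1).

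The stress and CORT responses were compared by the difference of their log2 fold changes, over all 12 libraries. In this test 0.194% of 14415 genes were called in each direction. Of the members, 2 were called, *Fabp1* and *Rbp2*, both with a larger difference in stress, and none was called the other way. *Rbp2* had 11.2, 17.5 and 13.8 CPM in vehicle and 10.9, 19.0 and 15.0 CPM in CORT libraries, so that it overlapped after CORT and did not after stress (difference of log2 fold changes 3.29 ± 0.59, adjusted p = 0.0355). That of *Fabp1* was 4.65 ± 0.81 (adjusted p = 0.0294), and for *Fabp1* the vehicle libraries stood above Ctrl and the CORT libraries below vehicle. *Sis* had 15.4, 14.2 and 7.13 CPM in vehicle and 5.95, 17.0 and 11.8 CPM in CORT libraries, and the difference of its responses, 3.41 ± 0.81, did not pass the test (adjusted p = 0.0907). At an unadjusted p below 0.05, 20 members had a larger stress difference and 0 a smaller one, against 7.01% and 5.47% of all genes. Of the other lists, *Mmp7* (2.18, adjusted p = 0.000688), *Ace* (2.61, adjusted p = 0.0344) and *Ezr* (0.56, adjusted p = 0.0393) were called, each with the larger value in stress, and these calls held in 12, 3 and 1 of 12 fits with a library left out. Without any 1 Ctrl or any 1 CORT library, without Vehicle-5 and without Vehicle-6, 0 members were called by edgeR, with 18 to 21 having a larger stress difference at an unadjusted p below 0.05, against 6.00% to 6.76% of all genes, and without CRS-3 17 were called.

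Over the 12 libraries 20 of the 34 members had a Pearson r above 0.9 with the mean of the other members, given as a description. *Sis* had an r of 0.97, *Slc2a2* 0.968 and *Apoa1* 0.966. Those least alike were *Dgat2* (0.375), *Creb3l3* (0.379) and *Anpep* (0.486), followed by *Slc2a5* (0.566) and *Slc5a1* (0.584). Of 14367 other genes, 68 (0.473%) had an r above 0.9 with the members' mean. Among the most alike were *Clec2h* (0.985), *Spink1* (0.982), *Tm6sf2* (0.977), *Gda* (0.977), *Sepp1* (0.973), *Gm10499* (0.969), *Cyp4f14* (0.964), *Hsd17b2* (0.964) and *Krt20* (0.962). *Clec2h*, for one, had 5.85 to 7.01 CPM in Ctrl and 45.0, 12.4 and 100 CPM in CRS-1+2, CRS-3 and CRS-4+5+6, the order of the members.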

How the data were processed

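RNA-seq of sorted ISCs had been run by the authors with libraries from total RNA and random priming, a kit that does not mark strand. Per the labels, reads were aligned to mm10 with HISAT2 2.2.1 and quantified with StringTie 2.2.1; the methods of the study name featureCounts for counting and another HISAT2 version. One deposited table gives an estimated count for each gene and library, and 12 deposited abundance files give FPKM and coverage. From the values, 1 count stands for 75 covered bases, so a pair of 150-base reads gives up to 4 counts. FPKM were used by the authors' scale for levels between genes and in alternatives, and coverage was used to check the counts. Estimated counts were rounded to whole numbers.

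Counts were tested in edgeR 4.0.16 (R 4.3.3; TMM factors, filterByExpr, quasi-likelihood F-test, Benjamini-Hochberg adjustment over all genes tested, threshold 0.05), with the 6 libraries of each comparison or all 12 for the difference of responses. SE was the log2 fold change over the root of F. CPM used TMM factors over the 12 libraries; ratios to Ctrl used CPM + 0.5. The fit was tested on simulated counts. Replicate pairs differed by 9.20 to 94.1 chi-square units per gene, so none agreed within sampling noise. Biological coefficients of variation were 18.5%, 19.2% and 16.8% for stress, CORT and vehicle comparisons. Depth of 15934907 to 69533214 counts per library sets the floor of 12 counts at 0.173 to 0.753 CPM.

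Members and lists were chosen with earlier results of these data known. All 34 members are reported; list genes are named where called; the genes named as most alike come from the 10 highest r over 12 libraries, and 1 gene that these rules select is not reported here. Of 151 listed genes, 1 (*Gpat3*) was not found under its symbol. Positions come from the abundance files (mm10) and promoters from RefSeq. Alternatives were DESeq2 1.42.0, its size factors, other filters, limma 3.58.1 on log2(FPKM + 1) and log2(FPKM + 0.1), 1 fit of all libraries and each library left out.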

Additional observations from a re-analysis of the deposited data

Results flagged for a closer look

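The stress and CORT responses differed by the test of the difference itself for *Fabp1* and *Rbp2*. For *Fabp1* the stress difference exceeded the CORT difference by 4.65 on the log2 scale (adjusted p = 0.0294, edgeR over all 12 libraries): all 3 stress libraries lay above Ctrl and all 3 CORT libraries lay below vehicle. For *Rbp2* it exceeded it by 3.29 (adjusted p = 0.0355), with 3 of 3 stress libraries above Ctrl and overlapping CORT and vehicle libraries. Leaving out 1 library gave adjusted p from 0.00296 to 0.0941 for *Fabp1* and from 0.00262 to 0.102 for *Rbp2*.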

How the results depend on the processing

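In stress vs Ctrl all 34 members were fitted higher in every setting and left-out fit, except *Abcg5*, which was just below 0 without CRS-4+5+6, and no called member changed direction in any comparison. The calls were less stable, in counts that are given for all genes higher and lower and for members. In stress vs Ctrl (179, 81 and 12 with all libraries) DESeq2 called 404, 212 and 19, and 1 fit of all 12 libraries called 309, 201 and 17. With at least 10 counts in every library the counts were 218, 102 and 15. Limma on log2(FPKM + 1) called 58, 31 and 2, and on log2(FPKM + 0.1) 60, 30 and 2. Without a filter on low counts edgeR called 35, 11 and 0 (27 members at an unadjusted p below 0.05), and limma on log2(FPKM + 1) without a filter 17, 10 and 0 (16 members at an unadjusted p below 0.05). With each library left out the counts were 42 to 560, 14 to 289 and 0 to 30, the highest without CRS-3, with 61, 27 and 4 without CRS-1+2 and 80, 34 and 8 without CRS-4+5+6. Members whose groups did not overlap went from 17 to 33 without CRS-3, while genes higher without overlap went from 10.2% to 19.1% of all tested.

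In CORT vs vehicle (533, 659 and 7) DESeq2 called 826 and 1042 genes, with 5 members higher and 4 lower. With at least 10 counts in every library 4 members were called higher and 3 lower. Limma called 330 higher and 694 lower on log2(FPKM + 1) and 321 and 697 on log2(FPKM + 0.1), both with 4 members. Without a filter limma called 215 higher, 346 lower and 3 members. The fit of all 12 libraries called 4 members. Left-out fits called 234 to 477 higher, 269 to 526 lower and 3 to 7 members, and members that did not overlap numbered 11 to 18, against 28.8% of all genes with every library and 35.1% to 41.3% in the left-out fits. In vehicle vs Ctrl (61, 48 and 6) DESeq2 called 179, 150 and 10, limma 23, 12 and 2 on log2(FPKM + 1), 24, 11 and 1 on log2(FPKM + 0.1), and 0, 0 and 0 without a filter (5 members higher and 11 lower at an unadjusted p below 0.05). The fit of all 12 libraries called 0 members by edgeR (3 higher and 5 lower at an unadjusted p below 0.05), and left-out fits 13 to 123, 7 to 75 and 0 to 6. The median log2 fold change of the members, -0.40, was -0.24 with at least 10 counts in every library and -0.22 on log2(FPKM + 1), with and without a filter. The difference of responses (2 members) had 11 members with DESeq2, 4 without a filter and 4 with at least 10 counts in every library, and 0 to 17 with a library left out.

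The summed level over Ctrl in CRS-1+2, CRS-3 and CRS-4+5+6 (1.93, 1.14 and 3.03 in CPM) was 2.11, 1.21 and 4.09 in FPKM and 2.19, 1.19 and 3.66 without *Vil1*. The cause of these shifts was not tested; a left-out fit has fewer samples. No paired analysis was possible because no groups compared share 2 library numbers. With DESeq2's size factors in edgeR each count of calls was within 1.5 times the main one. Members under about 3 CPM, such as *Cubn*, *Slc15a1* and *Cyp3a11*, rest on counts near the floor in vehicle libraries, CORT-2 and CORT-5. In CORT-4 *Cubn*, *Slc15a1* and *Cyp3a11* had 70, 76 and 73 counts.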
